A study of Mus musculus with 9 samples.

Results

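Cxcl9, Cxcl10, Cxcl16, Cxcl13 and Ccl5 encode chemokines, and Cxcr3, Cxcr6 and Cxcr5 encode chemokine receptors carried by lymphocytes. These 8 genes were listed by name, by a rule that sets no threshold on a measured value but was written with earlier results of these data known, from the 27998 genes counted in single cells of mouse liver isolated as non-hepatocytes. Cxcl9 and Cxcl10 bind the receptor encoded by Cxcr3, Cxcl16 binds the receptor encoded by Cxcr6, Cxcl13 binds the receptor encoded by Cxcr5, and Ccl5 acts through receptors that are not among the 8. The questions were which cells held the transcripts of the ligands, which lymphocytes held those of the receptors, and whether either changed after active YAP was switched on in hepatocytes.

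The WT group held 2 libraries from C57BL/6 mice with the ROSA26-rtTA-IRES-EGFP allele and no YAP transgene, given doxycycline food for 7 days. The YAP3d group held 4 libraries and the YAP7d group 3 libraries from mice that carried the same rtTA allele together with tetYAP, given doxycycline food for 3 and 7 days, respectively. All 9 libraries thus came from mice with rtTA that had received doxycycline, and YAP3d differed from WT in the length of feeding as well as in the transgene. The study's methods give Alb-CRE as the driver that restricts rtTA, and with it the active YAP transgene, to hepatocytes, so that the cells analysed here were not meant to carry induced YAP themselves. The study's methods describe digestion with dispase and collagenase, filtering and slow centrifugation as a way to isolate non-hepatocytes. Even so, 115 hepatocyte-like cells were found here. Each library is treated as 1 mouse, and p-values measure the spread between libraries.

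Chemokines are small secreted or, for Cxcl16, membrane-anchored proteins that direct the movement of leukocytes. Cxcl9 and Cxcl10 are textbook targets of interferon-gamma, and their receptor is typical of activated T cells and NK cells. Cxcr6 is known in liver for its presence on sinusoidal NKT cells, on resident T cells and on liver-resident NK-type cells, and sinusoidal endothelium is a known source of Cxcl16. Cxcl13 guides B cells and follicular T cells through Cxcr5. Ccl5 is stored and released by cytotoxic lymphocytes.

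In the RefSeq annotation of GRCm38.p6, Cxcl9 lies at chr5:92321331-92328079, Cxcl10 at chr5:92346638-92348889 and Cxcl13 at chr5:95956939-95961068. Cxcl16 lies at chr11:70454389-70459984 and Ccl5 at chr11:83525778-83530518. Cxcr3 lies at chrX:101731535-101734147, Cxcr6 at chr9:123806477-123811754 and Cxcr5 at chr9:44511787-44526444. The 250 bases before the start of Cxcl9 and of Cxcl10 are shown because these neighbouring interferon-gamma targets on the minus strand were the ligands that were lower over all cells in YAP7d against both other groups. Capitals mark matches, on either strand, to a shortened interferon-response pattern (GAAA, then any NN, then GAAA) or to a shortened NF-kappa-B pattern (GGGA, then any NNNN, then CC).
Cxcl9, chr5:92328080-92328329, minus strand: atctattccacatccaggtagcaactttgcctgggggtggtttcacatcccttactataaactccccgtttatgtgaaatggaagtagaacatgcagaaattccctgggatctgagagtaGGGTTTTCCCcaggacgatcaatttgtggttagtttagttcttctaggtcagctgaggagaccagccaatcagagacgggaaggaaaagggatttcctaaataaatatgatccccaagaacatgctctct
Cxcl10, chr5:92348890-92349139, minus strand: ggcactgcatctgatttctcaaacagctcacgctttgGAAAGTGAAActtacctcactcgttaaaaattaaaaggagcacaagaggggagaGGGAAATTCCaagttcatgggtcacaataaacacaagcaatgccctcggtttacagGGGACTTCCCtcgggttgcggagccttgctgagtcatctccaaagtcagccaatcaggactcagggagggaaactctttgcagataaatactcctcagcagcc
The Cxcl10 window held the first pattern between 213 and 204 bases before the start, and the second pattern between 159 and 150 and between 103 and 94 bases before it. The last of these matches reads the same pattern on both strands. In the Cxcl9 window the second pattern matched on the opposite strand between 130 and 121 bases before the start, and the first had no match. Across 32851 RefSeq promoter windows of the same length, 2.98% held the first pattern and 17.6% held the second, so the match to the first pattern was the less common of the 2. A match describes letters only.

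After cells with fewer than 200 genes were left out, 8527 cells remained, and the libraries had median depths of 3231 to 11471.5 UMIs (unique molecular identifiers, each counting 1 captured transcript) per cell. The cells formed 25 clusters, which were grouped into 13 classes named from marker genes, and 45 cells stayed unnamed. The conventional dendritic-cell-like class joined 157 cells of a cluster led by Xcr1 (9 of 12 markers raised) and 312 cells of a cluster led by Cd209a (5 of 12 raised), whose 10 leading genes also held Elane, Ctsg, Mpo and Prtn3, granule genes of neutrophils and myeloid progenitors, so values of this class carry that doubt. The Xcr1 cluster alone had 10 or more cells in too few libraries to be fitted. None of the 8 genes was used for clustering. WT replicate 1 and YAP3d replicates 1 and 3 held cells under 1000 UMIs and the other 6 libraries did not, so every YAP7d library belonged to the deeper set. Endothelial-like cells made up 53.0% and 35.5% of the WT libraries, 11.5% to 38.2% of the YAP3d libraries and 3.49% to 4.99% of the YAP7d libraries. Macrophage-like cells made up 5.51% and 7.10% in WT, 3.72% to 19.2% in YAP3d and 29.8% to 46.4% in YAP7d. Of 8515 distinct cell barcodes, 46 occurred in more than 1 library.

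Levels are given as CPM, the gene's UMIs per 1000000 UMIs of the same cells and library. Over all cells of a library, fewer cells of a type and less RNA per cell cannot be told apart, which touches every result of the next 2 paragraphs. Cxcl9 was at 102 and 135 CPM in the WT libraries, at 162, 146, 78 and 79.1 CPM in YAP3d and at 13.3, 29.8 and 6.51 CPM in YAP7d. Every YAP7d library was below every other library. Cxcl10 was at 204 and 246 CPM in WT, at 293, 63.4, 165 and 206 CPM in YAP3d and at 77.2, 40.9 and 50.4 CPM in YAP7d, where YAP3d replicate 2 lay among the YAP7d values. Cxcr6 was at 164 and 101 CPM in WT, at 247, 127, 177 and 88.9 CPM in YAP3d and at 38.2, 17.8 and 8.74 CPM in YAP7d. Its YAP7d libraries lay below all others.

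In YAP7d against WT, 3 of the 8 genes were lower over all cells and none was higher at an adjusted p of 0.05 (edgeR quasi-likelihood test, Benjamini-Hochberg over 12071 genes), while 10.9% of all genes tested were lower. The median log2 fold change was -1.60 for the 8 genes and -0.02 for all genes. Cxcl9 fell by 2.78 on the log2 scale (SE 0.51, adjusted p 0.00707 from edgeR), Cxcl10 by a log2 fold change of -1.85 (SE 0.48 and adjusted p 0.0272 in edgeR) and Cxcr6 by one of -2.51 (SE 0.51 and adjusted p 0.0110 in edgeR). In YAP7d against YAP3d, 6 of the 8 were lower, against 9.83% of all genes. Their log2 fold changes were -2.75 for Cxcl9, -1.54 for Cxcl10, -2.19 for Cxcl13, -1.55 for Cxcr3, -2.89 for Cxcr5 and -2.78 for Cxcr6, with edgeR adjusted p from 0.00748 to 0.0360. Cxcl16 (-0.19, adjusted p 0.632 in edgeR) and Ccl5 (-0.73, adjusted p 0.101 in edgeR) did not pass there. In YAP3d against WT, 0 of the 8 passed in edgeR, 0 of the 8 reached an unadjusted p under 0.05, and 0% of all genes were lower, with 358 of 12071 genes at an unadjusted p under 0.05. Comparisons of YAP7d with WT and with YAP3d share the YAP7d libraries.

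Within the 6 deeper libraries alone, none of the calls over all cells passed. There the log2 fold changes against WT were -2.96 for Cxcl9 (edgeR adjusted p 0.0896), -1.98 for Cxcl10 (edgeR adjusted p 0.140) and -2.14 for Cxcr6 (edgeR adjusted p 0.122), and 1 WT library stood for its group. The calls of Cxcl9 in both comparisons, and of Cxcr6 against YAP3d, held without any 1 library. Without WT replicate 1, Cxcr6 against WT gave -2.17 and lost its call, and Cxcl10 against WT did so without WT replicate 1 (-2.02), WT replicate 2 (-1.65), YAP7d replicate 2 (-1.64) or YAP7d replicate 3 (-1.85). Against YAP3d, Cxcl10 kept its call in 1 of 9 such fits, with log2 fold changes from -1.81 to -1.24. Cxcr3 lost it without YAP3d replicate 3 (-1.42), YAP7d replicate 2 (-1.50) or YAP7d replicate 3 (-1.28), and Cxcl13 without YAP3d replicate 4 (-1.91), YAP7d replicate 2 (-1.88) or YAP7d replicate 3 (-1.93). Cxcl13 also lost it with cells thinned to 2000 UMIs (-1.80, edgeR adjusted p 0.0892). Without each library's cell of most UMIs of the gene, Cxcl13 and Cxcl10 both lost it. Single cells held 44 of the 47 Cxcl13 UMIs of YAP3d replicate 1 and 144 of the 172 of replicate 2. Cxcl10 also lost it with only the 2 groups compared. Cxcr5 kept its call in 4 of 9 fits, losing it without YAP3d replicate 1 (-3.02), YAP3d replicate 4 (-1.65) or any 1 YAP7d library (-3.16 to -2.56).

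**Figure D1:**
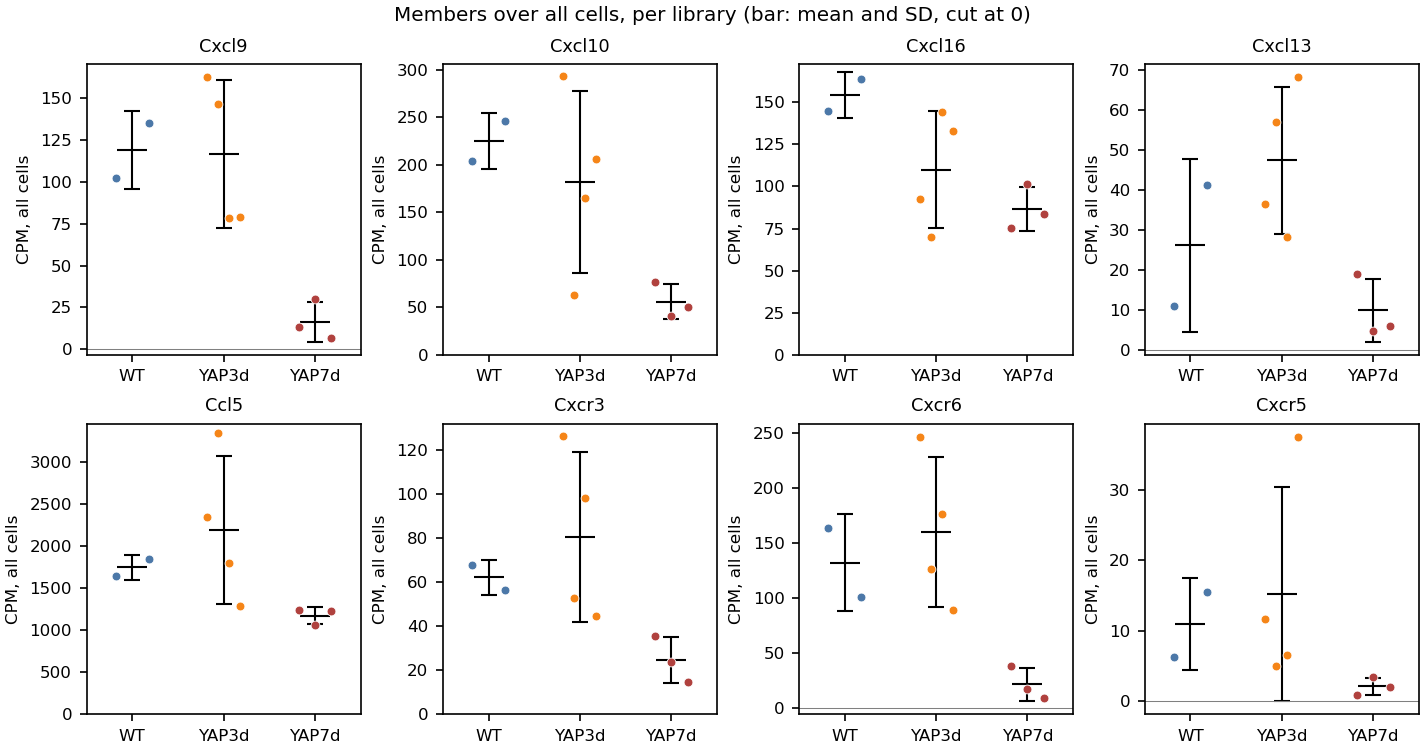
CPM over all cells for each of the 8 genes (y axis, linear, starting at or near 0) in WT (2 libraries), YAP3d (4) and YAP7d (3), with 1 point a library and bars for the mean and SD. Cxcl9 and Cxcr6 in YAP7d sit below every other library, at up to 29.8 and 38.2 CPM, while Cxcl16 overlaps between YAP3d and YAP7d.

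Transcripts of Cxcl9, Cxcl10 and Cxcl16 in WT came mainly from endothelial-like cells. Endothelial-like cells held 93.9% and 70.03% of all Cxcl9 UMIs in WT, 42.1%, 11.5%, 89.5% and 86.7% in YAP3d and 19.7%, 17.7% and 62.0% in YAP7d. Macrophage-like cells held 4.59% and 17.4% in WT, 56.5%, 42.5%, 0.752% and 1.06% in YAP3d and 61.8%, 80.6% and 26.4% in YAP7d. Conventional dendritic-cell-like cells held more than macrophage-like cells in YAP3d replicates 2, 3 and 4, at 44.8%, 6.77% and 7.44%. For Cxcl10, endothelial-like cells held 72.4% and 80.7% in WT, 46.4% to 84.3% in YAP3d and 23.6%, 39.4% and 28.5% in YAP7d. These shares follow both the makeup of the libraries and the level per class.

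For Cxcl16, the endothelial-like share was 84.5% and 69.9% in WT, 26.4% to 70.6% in YAP3d and 8.80%, 12.6% and 9.62% in YAP7d, where macrophage-like cells held 75.0%, 81.2% and 71.9%. Endothelial-like cells were thus the larger holder in both WT libraries and macrophage-like cells in all 3 YAP7d libraries. Cxcl13 was held by macrophage-like cells, at 90.5% and 67.7% in WT and 97.2%, 95% and 96.1% in YAP7d. In YAP3d replicate 2 this share was 15.7%, because 144 of the library's 172 Cxcl13 UMIs lay in 1 cell of an unnamed cluster led by Prg4 and Alox15. Ccl5 was held largely by NK-cell-like cells, at 51.8% and 47.6% in WT, 58.2%, 32.0%, 44.9% and 54.2% in YAP3d and 56.8% to 76.5% in YAP7d, and by T-cell-like cells, at 36.3% and 44.5% in WT, 40.6%, 13.6%, 51.5% and 32.2% in YAP3d and 19.0% to 27.1% in YAP7d. The T-cell-like share was the larger of the pair in YAP3d replicate 3. In YAP3d replicate 2, a cluster of 23 cells led by Gzmk and Pdcd1, found in that library alone and left unnamed, held 52.7% of the Ccl5 UMIs.

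**Figure D2:**
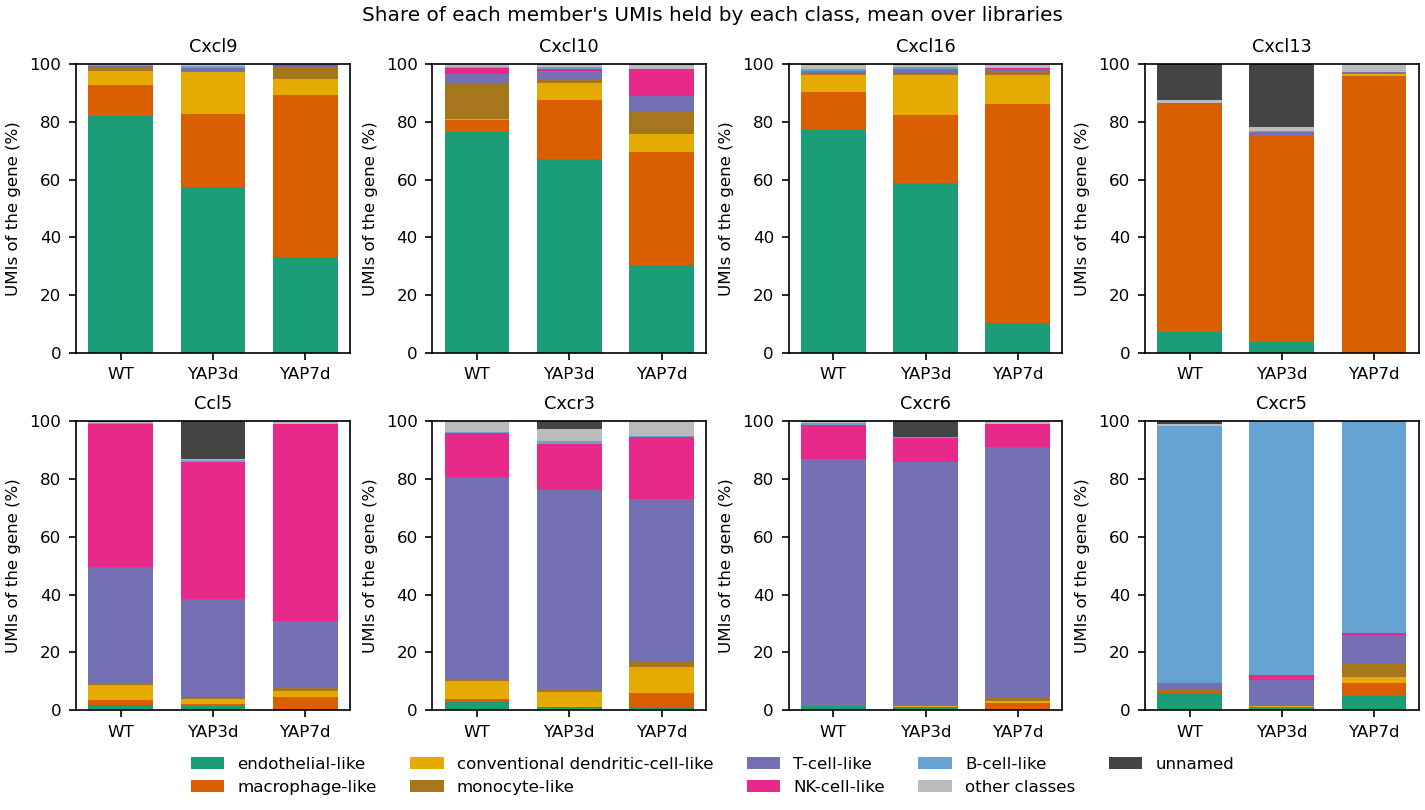
Share of each gene's UMIs (y axis, percent) held by each cell class, averaged over the libraries of WT, YAP3d and YAP7d (x axis), with colours for classes. The Cxcl16 bar is mostly endothelial-like in WT and mostly macrophage-like in YAP7d, and Cxcr5 is mostly B-cell-like in every group.

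The order of the levels by class was taken over all groups pooled, from libraries with at least 10 cells of the class and classes with at least 3 such libraries, and it separated few neighbours. Classes with fewer than 9 libraries rest on another mix of groups. Mean Cxcl10 was 480 ± 148 CPM in endothelial-like cells (SD, n = 9 libraries), 296 ± 652 in macrophage-like cells (n = 9) and 81.4 ± 109 in monocyte-like cells (n = 6), with overlapping ranges. Within groups it was 483 CPM in endothelial-like and 118 CPM in macrophage-like cells in WT, 546 and 573 CPM in YAP3d, and 391 and 45.6 CPM in YAP7d. The higher macrophage-like mean in YAP3d rests on replicate 1, at 2028 CPM, or 39.8 CPM without its highest cell. In YAP3d replicates 2, 3 and 4, endothelial-like cells were higher, at 411, 427 and 595 CPM against 71.3, 29.9 and 161 CPM. Mean Cxcl16 was 273 ± 57.6 CPM in endothelial-like, 209 ± 97.9 in macrophage-like and 114 ± 36.9 in conventional dendritic-cell-like cells (SD, n = 9 each), and the order of these 3 was the same within each group (320, 268 and 104 CPM in WT, 295, 238 and 135 CPM in YAP3d, and 212, 130.5 and 92.1 CPM in YAP7d). Cholangiocyte-like cells, with 10 or more cells in only 2 libraries, were at 152 and 70.7 CPM, near the conventional dendritic-cell-like values. Mean Cxcl13 was 290 ± 368 CPM in macrophage-like cells and 3.61 ± 4.08 in endothelial-like cells, the next class (SD, n = 9 each). Mean Cxcl9 was 245 ± 505 CPM in macrophage-like, 199 ± 86.6 in endothelial-like and 125 ± 280 in conventional dendritic-cell-like cells (SD, n = 9 each), and single cells held much of the highest values of the first and the third. Mean Cxcl9 was 259 CPM in endothelial-like and 176 CPM in macrophage-like cells in WT, 249 and 447 CPM in YAP3d, and 93.2 and 20.1 CPM in YAP7d. The macrophage-like mean was thus the higher one in YAP3d only, through replicate 1 (1564 against 305 CPM). In YAP3d replicates 2, 3 and 4 endothelial-like cells were higher.

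In YAP3d replicate 1, the macrophage-like class had 118 Cxcl9 UMIs in 15 cells, of which 93.2% lay in 1 cell, and 153 Cxcl10 UMIs, of which 98.0% lay in that same cell. That cell had 9340 UMIs in all and was not called a doublet. Another cell of this library held 44 of its 47 macrophage-like Cxcl13 UMIs. In YAP3d replicate 2, 1 conventional dendritic-cell-like cell held 169 of 198 Cxcl9 UMIs. Without the cell of most UMIs in each library and class, macrophage-like Cxcl9 in YAP3d replicate 1 dropped from 1564 to 106 CPM and Cxcl10 from 2028 to 39.8 CPM. In endothelial-like cells of WT replicate 2, by contrast, the 694 Cxcl9 UMIs lay in 219 of 502 cells. Macrophage-like Cxcl16 was also spread over many cells, with 1501 UMIs in 361 of 546 cells of YAP7d replicate 3.

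In endothelial-like cells, Cxcl9 was at 218 and 300 CPM in WT, at 305, 235, 214 and 243 CPM in YAP3d and at 67.7, 99.2 and 113 CPM in YAP7d. The 3 YAP7d libraries lay below all others. The log2 fold change was -1.33 in YAP7d against WT (SE 0.24 and adjusted p 0.00118 in edgeR) and -1.25 against YAP3d (SE 0.22 and adjusted p 0.00113 in edgeR). It was -0.09 in YAP3d against WT (SE 0.21 and adjusted p 0.9999 in edgeR). In this class 1 of 4 tested members was lower against WT, where 7.73% of 7504 genes were lower, and 1 of 4 against YAP3d, where 7.36% were lower. For both comparisons the call held without any 1 library, without the highest cell of each library, and within the 6 deeper libraries (-1.57 with edgeR adjusted p 0.00336 against WT, and -1.24 with edgeR adjusted p 0.00672 against YAP3d).

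Cxcl10 in the same cells was at 335 and 630 CPM in WT, at 749, 411, 427 and 595 CPM in YAP3d and at 470, 302 and 401 CPM in YAP7d, and the groups overlapped. Its log2 fold change in YAP7d against WT was -0.24 (SE 0.28 and adjusted p 0.613 in edgeR). Cxcl16 was at 277 and 363 CPM in WT, at 291, 258, 301 and 331 CPM in YAP3d and at 172, 239 and 224 CPM in YAP7d, all below the other groups, with a log2 fold change of -0.52 against WT (SE 0.20 and adjusted p 0.0865 in edgeR) that did not pass. It passed without the highest Cxcl16 cell of each library (-0.66, edgeR adjusted p 0.0464). Cxcl13 was too low to be tested in this class with the filter on low counts. With no filter it passed against YAP3d (edgeR adjusted p 0.0101), with 0 UMIs in the 3 YAP7d libraries and 0, 1, 5 and 37 UMIs in YAP3d, and no fold is given against a group at 0. Whether Cxcl9 and Cxcl10 differed from each other in their change was not tested.

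The endothelial-like cells of YAP7d were of another make than those of the other groups. Of 24, 23 and 64 such cells in the YAP7d libraries, 17, 17 and 60 belonged to a cluster led by Fabp4 and Pcdh17, which held 0 WT cells and 5 YAP3d cells in all. Most endothelial-like cells of WT and YAP3d fell into 3 clusters led by Clec4g (a marker of sinusoidal endothelium), by Ntn4 and by Erg. Cxcl9 was at 70.6, 106 and 117 CPM in the Fabp4 cluster of the YAP7d libraries, and at 229 and 319 CPM in WT and 263 to 348 CPM in YAP3d in the Clec4g cluster. The Erg cluster had 85.0 and 157 CPM in WT. Cxcl10 in the Fabp4 cluster was at 537, 329 and 409 CPM, and in the Clec4g cluster of WT at 518 and 746 CPM. The summed level of 15 endothelial markers in the class was 17115 to 19872 CPM in WT, 16074 to 18817 in YAP3d and 9335 to 9687 in YAP7d, and no marker was at 0 in any group. The part of this makeup in the Cxcl9 result was not tested, since at most 7 YAP7d cells per library lay outside the Fabp4 cluster.

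At an equal depth of 2000 UMIs per cell, 28.5% and 32.2% of endothelial-like cells had a Cxcl9 UMI in WT, 15.2% to 27.3% in YAP3d and 16.7% to 17.4% in YAP7d. In B-cell-like cells, which should lack the gene, the share was 0% to 1.69%. The YAP7d shares lay within the YAP3d range, and the YAP7d against YAP3d call of Cxcl9 was lost in counts thinned this way (edgeR adjusted p 0.0884), while that against WT was kept. Without thinning the shares were 27.5% and 43.6% in WT and 29.2% to 40.6% in YAP7d, at median depths of 2384 and 4668.5 UMIs in WT and 7403.5 to 13759.5 UMIs in YAP7d. Thinning leaves out shallower cells, and it kept 151 of 276 and 447 of 502 cells in WT, 46 of 75, 42 of 51, 88 of 161 and 722 of 770 cells in YAP3d and all 24, 23 and 64 cells in YAP7d.

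In macrophage-like cells, Cxcl13 was at 141 and 340 CPM in WT, at 623, 28.8, 314 and 1102 CPM in YAP3d and at 41.4, 7.20 and 13.1 CPM in YAP7d. The YAP7d libraries lay below WT and, except for YAP3d replicate 2, below YAP3d. The log2 fold change was -4.69 in YAP7d against YAP3d (SE 0.90 and adjusted p 0.0323 in edgeR), the 1 call among 5 tested members, where 0.217% of 7376 genes were lower. Against WT, 0 of 5 passed in edgeR, where 0.691% of genes were lower. An unadjusted p under 0.05 was reached by 4 of 5, as by 1213 of all 7376 genes. Cxcl13 had a log2 fold change against WT of -3.69 (SE 0.94 and adjusted p 0.0677 in edgeR). Without the highest Cxcl13 cell of each library the value against YAP3d was -4.09 (edgeR adjusted p 0.0687) and did not pass. It did not pass either without YAP3d replicate 1 (-4.60), 3 (-4.83) or 4 (-3.67), without YAP7d replicate 2 (-4.29) or 3 (-4.45), or within the 6 deeper libraries (-4.78, edgeR adjusted p 0.375). Against WT, Cxcl13 passed at Leiden resolution 0.5 (-3.88, edgeR adjusted p 0.0353), at resolution 2 (-3.65, edgeR adjusted p 0.0247), within the Kupffer-marker clusters (-3.22, edgeR adjusted p 0.0369) and with no filter on low counts (-3.58). It also passed with only the 2 groups compared (-3.67) and without YAP3d replicate 2 (-3.70) or 4 (-3.69). With only YAP7d and YAP3d compared, the Cxcl13 call against YAP3d was lost.

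The Cxcl13 level differed between macrophage-like clusters. A cluster led by C6 and Fcna, high in Kupffer cell markers, had 118 and 498 CPM in WT and 1546, 860 and 1000 CPM in YAP3d replicates 1, 3 and 4, and contained 0 YAP7d cells. Another cluster high in Kupffer cell markers, led by Marco, had 420 and 113 CPM in WT and 72.1, 10.2 and 43.3 CPM in YAP7d. In YAP3d replicate 4, 336 Cxcl13 UMIs also lay in 27 cells of the cluster led by Clec4a2, which held 32.7% to 73.8% of YAP7d macrophage-like cells and 0, 0 and 5 Cxcl13 UMIs there. With macrophage-like cells restricted to the 2 clusters high in Kupffer markers, Cxcl13 had log2 fold changes of -3.22 against WT (edgeR adjusted p 0.0369) and -3.80 against YAP3d (edgeR adjusted p 0.0136). At 2000 UMIs per cell, 15% and 21.1% of macrophage-like cells in WT, 5.41% to 25.0% in YAP3d and 0.467% to 2.75% in YAP7d had a Cxcl13 UMI, and 0% to 0.616% of B-cell-like cells.

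The other ligands of macrophage-like cells did not pass in the edgeR fit with the filter on low counts. Cxcl9 was at 66.6 and 285 CPM in WT, at 1564, 200, 7.48 and 16.4 CPM in YAP3d and at 18.5, 37.9 and 3.84 CPM in YAP7d, with log2 fold changes of -3.42 against WT (SE 1.26 and adjusted p 0.175 in edgeR) and -4.28 against YAP3d (SE 1.21 and adjusted p 0.159 in edgeR). Against WT, Cxcl9 passed at Leiden resolution 0.5 (-3.54, edgeR adjusted p 0.0345), with only the 2 groups compared (-3.42) and with no filter on low counts (-3.31, edgeR adjusted p 4.29e-16), and against YAP3d it passed with no filter (-4.07, edgeR adjusted p 1.384e-27). In WT replicate 2, 1 cell held 117 of the 172 UMIs. Without the highest Cxcl9 cell of each library the values were -2.64 against WT (edgeR adjusted p 0.103) and -1.80 against YAP3d (edgeR adjusted p 0.309). With no filter, Cxcl10 also passed against WT (-1.50) and YAP3d (-3.17), and Ccl5 against WT (-1.67). Without the highest Cxcl10 cell of each library the Cxcl10 values were -0.75 and -0.70. Without YAP3d replicate 2 Cxcl10 passed against YAP3d (-3.82), and without YAP7d replicate 3 Ccl5 passed against WT (-2.77). Cxcl16 was at 192 and 343 CPM in WT, at 212, 115, 381 and 244 CPM in YAP3d and at 128, 130 and 134 CPM in YAP7d, with a log2 fold change of -1.12 against WT (SE 0.38 and adjusted p 0.145 in edgeR). The YAP7d values were close to each other and below both WT libraries, yet YAP3d replicate 2 was lower still, and without that library Cxcl16 passed against WT (-1.11) and against YAP3d (-1.08). In conventional dendritic-cell-like cells 0 of 5 members passed against WT, 0 of 5 against YAP3d and 0 of 5 in YAP3d against WT in edgeR, where 0%, 0.027% and 0% of 3708 genes were lower. An unadjusted p under 0.05 was reached by 2, 1 and 1 of the 5, as by 298, 334 and 113 of all 3708 genes. With no filter on low counts, Cxcl9 in this class passed against WT (-3.65, edgeR adjusted p 3.628e-13) and YAP3d (-4.98, edgeR adjusted p 1.055e-31), and Ccl5 against WT (-1.90), so these calls depend on the filter. In this class 1 cell held 60 of the 84 Cxcl9 UMIs of WT replicate 2, and without the highest Ccl5 cell of each library the Ccl5 value against WT was 0.44.

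**Figure D3:**
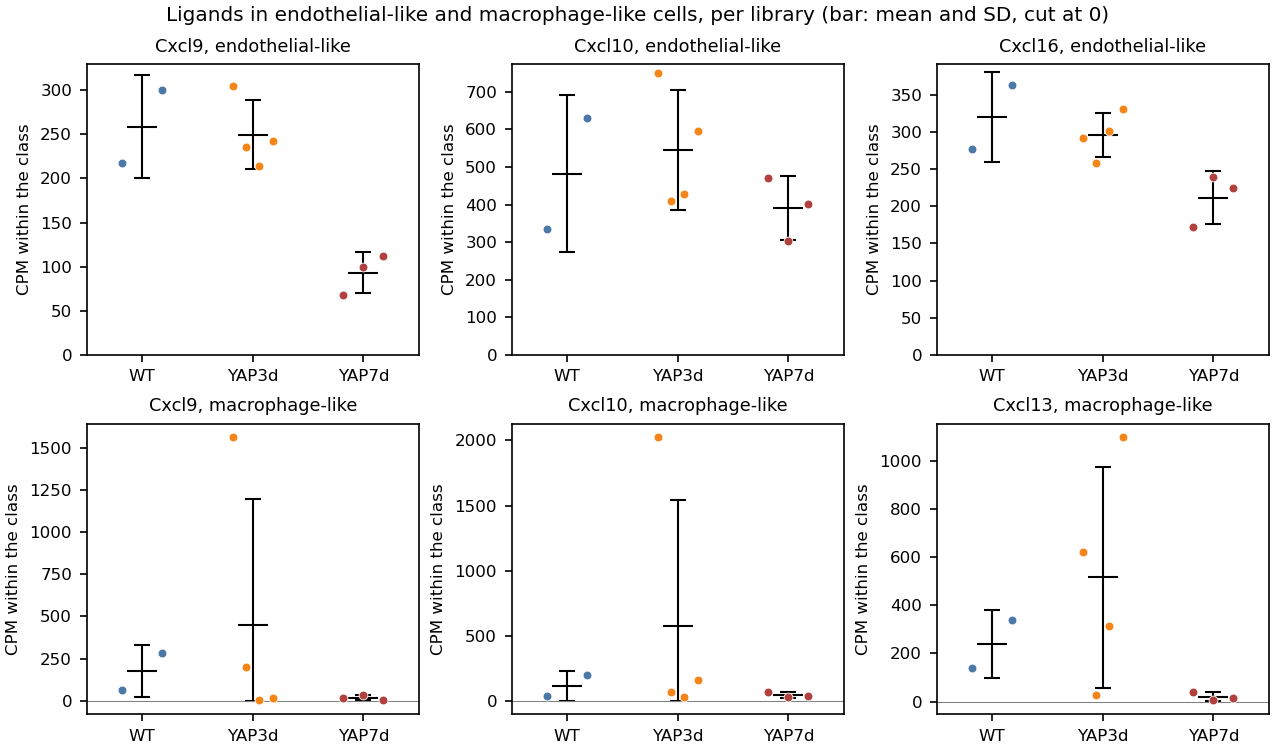
CPM within the class (y axis, linear) of Cxcl9, Cxcl10 and Cxcl16 in endothelial-like cells and of Cxcl9, Cxcl10 and Cxcl13 in macrophage-like cells, by group, with 1 point a library and bars for the mean and SD, cut at 0. Endothelial-like Cxcl9 in YAP7d ends at 113 CPM, below all other libraries, and the single high macrophage-like points of Cxcl9 (1564) and Cxcl10 (2028) are YAP3d replicate 1.

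Monocyte-like cells, with 4 and 49 cells in the WT libraries, were too few for the planned fit. Cxcl10 there was at 2427 CPM in WT replicate 1, where all 77 UMIs lay in 1 of 4 cells, at 279 CPM in WT replicate 2, at 0, 9.17, 0 and 136 CPM in YAP3d and at 16.7, 4.04 and 43.6 CPM in YAP7d. The YAP7d libraries lay below both WT libraries. In a fit of libraries with 3 or more cells of the class, chosen after seeing the data, Cxcl10 was lower in YAP7d (-5.10, edgeR adjusted p 0.000330) and in YAP3d (-4.09, edgeR adjusted p 0.0108) against WT. The level of WT replicate 1 in this fit is that of 1 cell. The YAP3d 0 values came from 3 cells of replicate 1 and 7 cells of replicate 3. Each allows up to 3 counts, or 110 and 84.9 CPM, above every YAP7d value.

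The receptor transcripts were held largely by lymphocytes. Cxcr6 averaged 436 ± 212 CPM in T-cell-like and 189 ± 146 CPM in NK-cell-like cells (SD, n = 9 each), and the ranges of these neighbours overlapped over all groups pooled, while the next class, neutrophil-like cells, had 20.2 ± 38.7 CPM (n = 4). Cxcr3 averaged 205 ± 67.3 CPM in T-cell-like, 178 ± 107 in NK-cell-like (n = 9 each), 101 ± 39.8 in plasmacytoid dendritic-cell-like (n = 4) and 32.5 ± 23.4 in conventional dendritic-cell-like cells (SD, n = 9), all overlapping with their neighbours. Within groups, mean Cxcr6 was 490 CPM in T-cell-like and 305 CPM in NK-cell-like cells in WT, 568 and 261 CPM in YAP3d, and 223 and 16.5 CPM in YAP7d. Mean Cxcr3 was 189.5 and 190.3 CPM in WT, 234 and 253 CPM in YAP3d, and 176 and 68.3 CPM in YAP7d, so its order was not the same in every group. In conventional dendritic-cell-like cells, Cxcr3 was at 23.1 to 115 CPM in the cluster led by Xcr1, the marker of the cross-presenting subset, and at 0 to 10.4 CPM in the cluster led by Cd209a. Cxcr5 averaged 98.9 ± 41.5 CPM in B-cell-like cells (n = 9), whose lowest library, at 34.4 CPM, was above the highest of neutrophil-like cells at 19.5 CPM (4.88 ± 9.77, SD, n = 4). These 2 library values rest on 4 UMIs and 1 UMI, and 3 counts in that neutrophil-like library would be 58.6 CPM. Counting error thus does not separate them.

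In NK-cell-like cells, Cxcr6 was at 360 and 249 CPM in WT, at 207, 164, 383 and 290 CPM in YAP3d and at 25.7, 0 and 23.7 CPM in YAP7d. The YAP7d libraries were far below all others, and the 0 of YAP7d replicate 2, in 31 cells, allows a level of up to 13.6 CPM (3 counts, counting error only). The log2 fold change was -3.65 in YAP7d against WT (SE 0.44 and adjusted p 0.000302 in edgeR) and -3.40 against YAP3d (SE 0.40 and adjusted p 0.000131 in edgeR). It was -0.25 in YAP3d against WT (SE 0.39 and adjusted p 0.9997 in edgeR). Both calls held without any 1 library, with adjusted p up to 0.00225 and 0.000830 in edgeR, and within the 6 deeper libraries (-3.42 with edgeR adjusted p 0.0284 against WT, and -3.30 with edgeR adjusted p 0.0112 against YAP3d).

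Cxcr3 in NK-cell-like cells was at 212 and 169 CPM in WT, at 310, 149, 364 and 190 CPM in YAP3d and at 92.9, 72.6 and 39.4 CPM in YAP7d, again below all others. Its log2 fold change was -1.38 against WT (SE 0.37 and adjusted p 0.0327 in edgeR) and -1.67 against YAP3d (SE 0.32 and adjusted p 0.00282 in edgeR). The call against WT was lost without WT replicate 1 (-1.26), WT replicate 2 (-1.52), YAP7d replicate 2 (-1.41) or YAP7d replicate 3 (-1.07), and both calls were lost within the 6 deeper libraries (-1.25 with edgeR adjusted p 0.204 against WT, and -1.26 with edgeR adjusted p 0.0587 against YAP3d). Ccl5 in these cells was at 17222 and 17249 CPM in WT, at 18193, 15566, 26296 and 18988 CPM in YAP3d and at 7729, 14225 and 11793 CPM in YAP7d. It passed against YAP3d (-0.65, SE 0.20, edgeR adjusted p 0.0341) and not against WT (-0.49, SE 0.23, edgeR adjusted p 0.209), and it kept the call in 3 of 9 fits without 1 library, losing it without either WT library, YAP3d replicate 1, 3 or 4, or YAP7d replicate 1 (-0.68 to -0.43). The Ccl5 call was also lost with no filter on low counts (-0.45), with thinned cells (-0.47), at Leiden resolution 2 (-0.60), without the highest cell of each library (-0.52) and within the 6 deeper libraries (-0.47). Cxcl10, the remaining tested member in this class, was at 170 and 26.8 CPM in WT, at 0, 19.3, 0 and 31.3 CPM in YAP3d and at 123, 18.2 and 50.9 CPM in YAP7d. Its log2 fold change was 1.82 against YAP3d (SE 0.66 and adjusted p 0.0767 in edgeR), and with no filter on low counts it passed (1.97, edgeR adjusted p 8.8e-05), while 1 cell held 60 of the 86 UMIs of YAP7d replicate 1. It also passed without WT replicate 1 (1.84) or 2 (1.83) or YAP7d replicate 2 (2.12). Against WT it was 0.09 (SE 0.69 and adjusted p 0.973 in edgeR). In all, 2 of 4 tested members were lower against WT, where 2.91% of 4086 genes were lower, 3 of 4 against YAP3d, where 5.09% were lower, and 0 of 4 in YAP3d against WT in edgeR (0 with an unadjusted p under 0.05), where 0% were lower.

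The NK-cell-like class held 2 clusters. One was led by Gzmc, Cd7 and Klra5 and the other by Klra4 and further genes of the Ly49 receptors of NK cells. The Gzmc cluster made up 52.0% and 52.4% of NK-cell-like cells in WT, 45.8%, 35.9%, 46.7% and 59.5% in YAP3d and 9.20%, 0% and 16.8% in YAP7d. Cxcr6 was at 644 and 450 CPM in the Gzmc cluster of WT, at 396, 506, 848 and 451 CPM in YAP3d, and at 195 and 134 CPM in the YAP7d libraries that had such cells, 8 and 24 in number. In the Klra4 cluster it was at 0 to 22.3 CPM in every library. The NK-cell-like difference in Cxcr6 thus went with a smaller share of Gzmc cluster cells and with lower values in that cluster. The YAP7d values in that cluster, from 2 libraries and 13 and 30 UMIs, were not tested against the others. At Leiden resolutions 0.5 and 2 all 189 cells of the Gzmc cluster stayed unnamed, and Cxcr6 was too low to be tested in the remaining NK-cell-like cells, so its calls exist only where the Gzmc cluster is counted as NK-cell-like.

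Cxcr3 was at 246 and 267 CPM in the Gzmc cluster of WT, at 267 to 636 in YAP3d and at 240 and 53.4 CPM in YAP7d, and at 168 and 52.4 CPM in WT, 61.3 to 247 in YAP3d and 36.8 to 77.4 CPM in YAP7d in the Klra4 cluster. Within the Klra4 cluster alone Cxcr3 had log2 fold changes of -0.39 against WT (edgeR adjusted p 0.790) and -0.69 against YAP3d (edgeR adjusted p 0.404), and neither passed. Cxcr3 also lost both calls at Leiden resolution 0.5 (-0.39 against WT and -0.73 against YAP3d) and at resolution 2 (-0.39 and -0.69). Ccl5 in the Klra4 cluster was at 18893 and 19637 CPM in WT, 14984 to 38274 in YAP3d and 7360, 14225 and 11864 in YAP7d, all below the other groups, with log2 fold changes of -0.66 against WT (edgeR adjusted p 0.150) and -0.60 against YAP3d (edgeR adjusted p 0.115) that did not pass. The summed level of 9 T-cell markers in NK-cell-like cells was 1929 to 2101 CPM in WT, 1647 to 2475 in YAP3d and 835 to 1031 in YAP7d, and none was at 0. The summed level of 13 NK-cell markers was 18367 to 18474 CPM in WT, 16021 to 20248 in YAP3d and 14761 to 18093 in YAP7d. The part of the T-cell markers in these results was not tested.

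At 2000 UMIs per cell, 28.6% and 27.2% of NK-cell-like cells in WT, 23.1% to 50% in YAP3d and 2.30%, 0% and 4.90% in YAP7d had a Cxcr6 UMI. In B-cell-like cells the share was 0% to 3.01%, so the shares of YAP7d replicates 1 and 2 were within that background. For Cxcr3 they were 28.6% and 37.0% in WT, 30.8% to 45.0% in YAP3d and 14.9%, 12.9% and 6.99% in YAP7d, against 0% to 3.03% in B-cell-like cells. Without thinning, the Cxcr6 shares were 48.0% and 39.0% in WT, 28.2% to 46.7% in YAP3d and 9.20%, 0% and 11.2% in YAP7d, although the YAP7d cells were the deeper ones, with medians of 5606 to 8436 UMIs against 3285 to 4567 UMIs elsewhere. Thinning kept 21 of 25 and 81 of 82 NK-cell-like cells in WT, 20 of 24, 39 of 39, 12 of 15 and 112 of 116 in YAP3d and all of them in YAP7d.

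**Figure D4:**
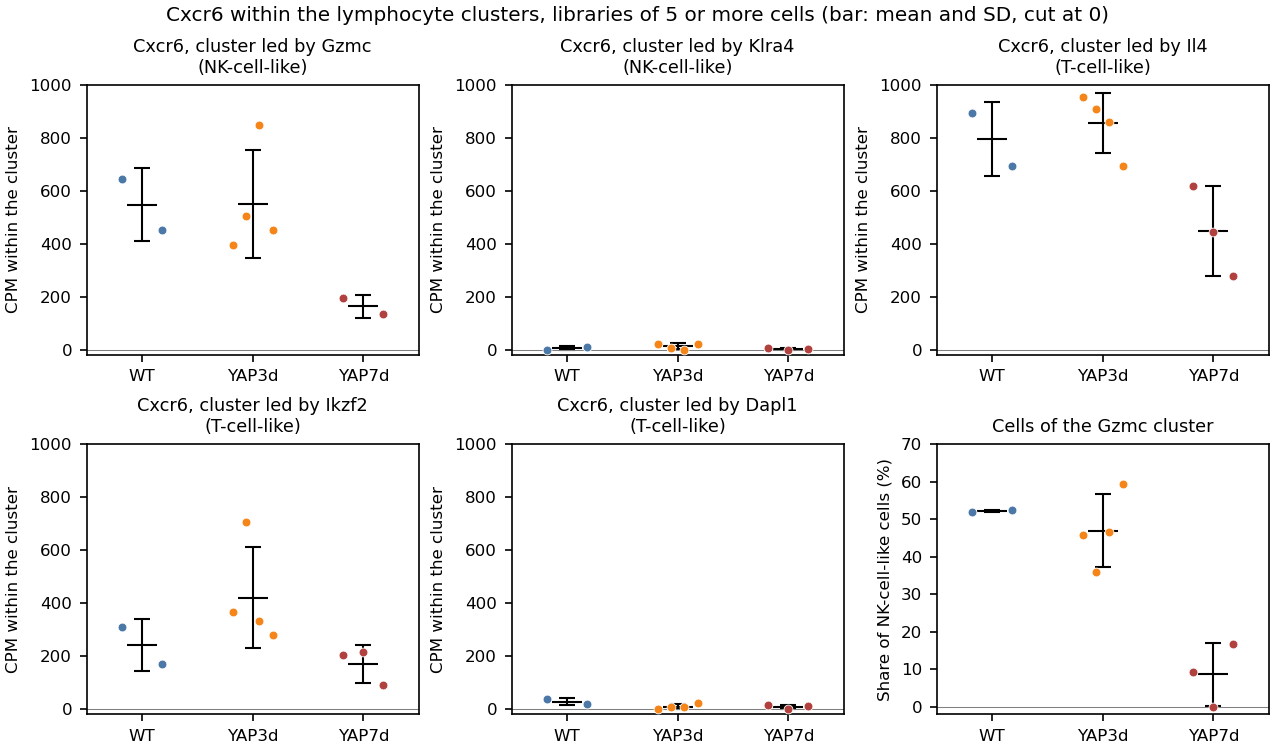
Cxcr6 CPM (y axis, linear) in the clusters of NK-cell-like and T-cell-like cells, by group, with 1 point for each library that had at least 5 cells of the cluster and bars for the mean and SD, cut at 0, and in the last panel the Gzmc cluster's share of NK-cell-like cells (percent). The Gzmc-led and Il4-led clusters carry Cxcr6, with their lowest points in YAP7d (134 and 280 CPM), and the Klra4-led cluster stays at or below 22.3 CPM in all groups.

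In T-cell-like cells, Cxcr6 was at 612 and 367 CPM in WT, at 774, 587, 568 and 343 CPM in YAP3d and at 325, 245 and 101 CPM in YAP7d. The YAP7d libraries lay below all others, with YAP7d replicate 1 close to YAP3d replicate 4. The log2 fold change was -1.33 against YAP3d (SE 0.31 and adjusted p 0.0426 in edgeR), the 1 call among 4 tested members, where 0.452% of 5978 genes were lower. Against WT, 0 of 4 passed in edgeR, where 0.0502% of genes were lower. An unadjusted p under 0.05 was reached by 1 of 4, as by 563 of all 5978 genes. Cxcr6 had a log2 fold change against WT of -1.14 (SE 0.35 and adjusted p 0.242 in edgeR). The call against YAP3d was lost without YAP3d replicate 1 (-1.18), 2 (-1.31) or 3 (-1.33), without YAP7d replicate 2 (-1.37) or 3 (-0.97), with cells thinned to 2000 UMIs (-1.45, edgeR adjusted p 0.0647), and within the 6 deeper libraries (-1.10, edgeR adjusted p 0.317). Against WT, Cxcr6 passed with no filter on low counts (-1.17).

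Among T-cell-like clusters, Cxcr6 was highest in the one led by Il4 and Cd40lg, at 896 and 696 CPM in WT, 956, 910, 859 and 696 CPM in YAP3d and 620, 444 and 280 CPM in YAP7d. The YAP7d libraries lay below all others. Within this cluster alone, the log2 fold change was -0.93 against YAP3d (SE 0.21 and adjusted p 0.0187 in edgeR) and -0.84 against WT (SE 0.24 and adjusted p 0.116 in edgeR). The cluster made up 65.1% and 46.5% of T-cell-like cells in WT, 43.1% to 79.1% in YAP3d and 41.5%, 32.8% and 18.1% in YAP7d. The cluster led by Dapl1 and Lef1, genes of naive T cells, was at 0 to 35.9 CPM in every library. With the unnamed Gzmk cluster of YAP3d replicate 2, at 653 CPM, counted as T-cell-like, the fold change against YAP3d was the same to 2 decimals and the adjusted p was 0.0687 in edgeR.

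Cxcr3, Ccl5 and Cxcl10 did not pass in T-cell-like cells in any comparison. Cxcl10 was at 4.09 to 68.0 CPM over the 9 libraries, with a log2 fold change of -0.20 against WT (SE 0.67 and adjusted p 0.966 in edgeR). Cxcr3 was at 210 and 169 CPM in WT, at 300, 222, 290 and 123 CPM in YAP3d and at 209, 221 and 98.2 CPM in YAP7d, and all groups overlapped. Its log2 fold change in YAP7d against WT was -0.13 (SE 0.32 and adjusted p 0.950 in edgeR). Cells with a Cxcr3 UMI also had a Cxcr6 UMI in 89.8% and 89.0% of cases in WT, 79.2% to 90.7% in YAP3d and 83.3%, 65.2% and 45.6% in YAP7d, while cells without a Cxcr3 UMI had one in 29.1% to 36.8%, 28.3% to 68.8% and 14.3% to 22.2%. YAP7d replicate 3, the deepest library, had the lowest share. Ccl5 was at 2521 and 3638 CPM in WT, 1937 to 3229 CPM in YAP3d and 2298, 3527 and 4993 CPM in YAP7d, with a log2 fold change of 0.29 against WT (SE 0.32 and adjusted p 0.870 in edgeR).

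**Figure D5:**
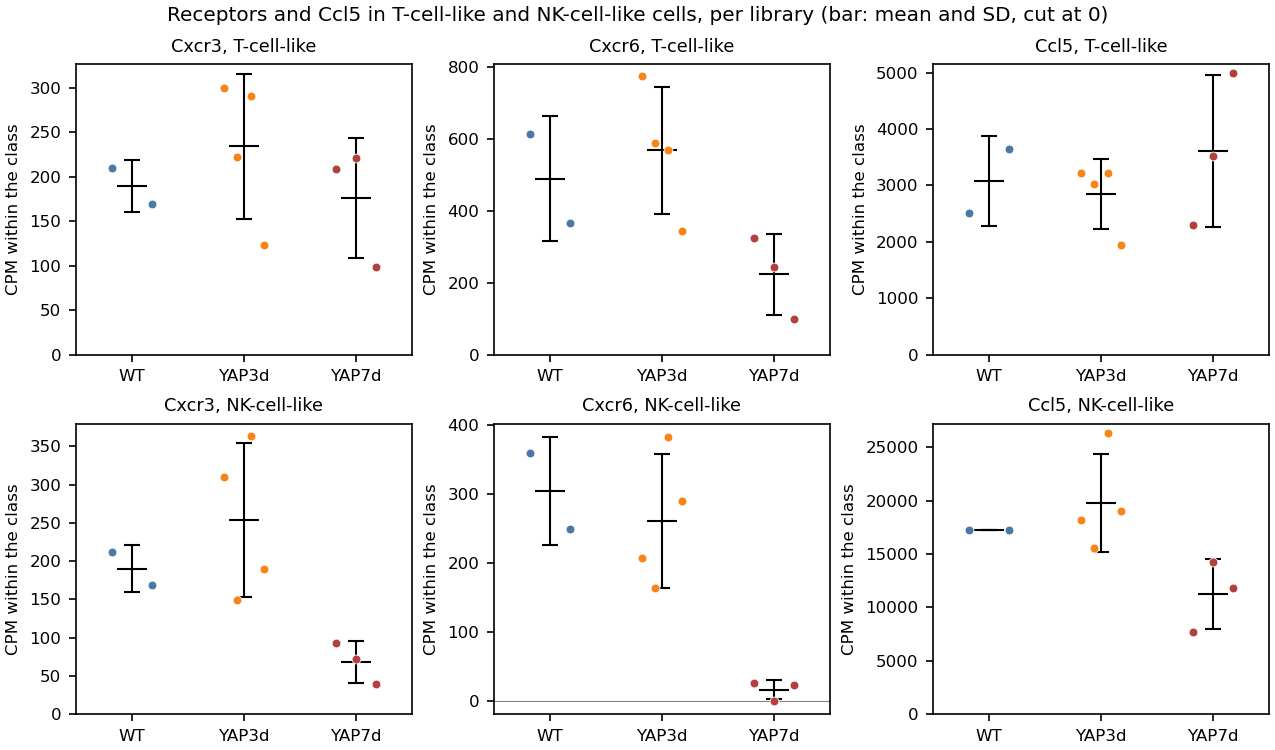
CPM within the class (y axis, linear) of Cxcr3, Cxcr6 and Ccl5 in T-cell-like cells (top) and NK-cell-like cells (bottom), by group, with 1 point a library and bars for the mean and SD, cut at 0. NK-cell-like Cxcr6 in YAP7d is at most 25.7 CPM against at least 164 CPM elsewhere, and T-cell-like Cxcr3 overlaps between all groups.

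In B-cell-like cells, Cxcr5 was at 88.5 and 124 CPM in WT, at 124, 128, 59.0 and 170 CPM in YAP3d and at 34.4, 73.2 and 89.1 CPM in YAP7d. The groups overlapped, and the log2 fold changes in YAP7d were -0.61 against WT (SE 0.44 and adjusted p 0.997 in edgeR) and -0.79 against YAP3d (SE 0.39 and adjusted p 0.708 in edgeR). Neither tested member, Cxcr5 or Ccl5, passed or had an unadjusted p under 0.05 in edgeR in this class, in which 0.0444%, 0% and 0% of 2251 genes were lower in YAP7d against WT, YAP7d against YAP3d and YAP3d against WT. Over all cells Cxcr5 had been lower against YAP3d, and B-cell-like cells made up 7.24% to 26.5% of the YAP3d libraries and 2.73% to 11.7% of the YAP7d libraries. At 2000 UMIs per cell, 6.06% to 27.9% of B-cell-like cells had a Cxcr5 UMI, against 0% to 1.24% of T-cell-like cells. Without thinning these shares were 12.1% to 43.3% and 0% to 2.68%.

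In YAP3d against WT, 0 members passed within any class in the edgeR fit with the filter on low counts or in DESeq2, and 0% of genes were lower in the macrophage-like, endothelial-like and T-cell-like classes. Members with an unadjusted p under 0.05 numbered 1 of 5 in macrophage-like cells and 1 of 5 in conventional dendritic-cell-like cells, in both cases Ccl5, named here after its values were seen. Among all genes of these classes, 290 of 7376 and 113 of 3708 reached such a p. In conventional dendritic-cell-like cells 300 of the 307 Ccl5 UMIs of WT replicate 1 lay in 1 cell, and without the highest cell of each library the log2 fold change of Ccl5 there was 0.45, against -2.04 with it. With no filter on low counts, Ccl5 passed in macrophage-like (-1.53) and conventional dendritic-cell-like cells (-1.98), and so did Cxcl10 (1.68 and 1.76). Without the highest cell of each library the macrophage-like Cxcl10 value was -0.05.

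Genes of the same pathways were taken from 3 lists. Of 14 genes of the interferon-gamma axis, 10 were tested in endothelial-like cells, and 6 were lower and 0 higher in YAP7d against WT, where 7.73% of all genes were lower, with a median log2 fold change of -0.95 against -0.00112 for all genes. Irf1, a transcription factor induced by interferon-gamma, had a log2 fold change of -1.10 (SE 0.20 and adjusted p 0.00133 in edgeR). The interferon-induced GTPase genes Gbp2 (-1.62), Igtp (-1.90) and Irgm1 (-0.95) and the feedback inhibitor Socs1 (-1.16) passed as well, with edgeR adjusted p from 0.00310 to 0.0313. Against YAP3d, where 7.36% of all genes were lower, 3 of 10 were lower, namely Gbp2 (-1.24), Irf1 (-0.82) and the kinase gene Jak1 (-0.71). In YAP3d against WT, 0 of 10 passed in edgeR and 1 had an unadjusted p under 0.05, as did 140 of all 7504 genes. These genes were measured in the same endothelial-like cells, of which most in YAP7d belonged to the Fabp4 cluster, and the part of that makeup was not tested.

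In NK-cell-like cells Irf1 was lower against WT (-1.15, 1 of 9) and against YAP3d (-1.16), together with Tbx21 (-0.79, 2 of 9), the gene of a transcription factor of type 1 lymphocytes, where 2.91% and 5.09% of all genes were lower. In T-cell-like cells 0 of 13 passed in edgeR in any comparison, and at most 2 had an unadjusted p under 0.05. In B-cell-like cells 0 of 4, and in conventional dendritic-cell-like cells 0 of 9, passed in edgeR, with at most 0 and 1 at an unadjusted p under 0.05. Of all genes, at most 0.452% were lower in T-cell-like, 0.0444% in B-cell-like and 0.027% in conventional dendritic-cell-like cells in any comparison. A count of 0 thus does not set these list genes apart from all genes. At an unadjusted p under 0.05 there were up to 909 of 5978, 157 of 2251 and 334 of 3708 genes. Over all cells, 4 of 14 were lower and 1 higher against WT, where 10.9% of all genes were lower and 7.17% higher, and 1 of 14 was lower against YAP3d, near the 9.83% of all genes.

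Of 30 other chemokine and receptor genes, 6 were tested in endothelial-like cells, and 2 of them, the scavenging receptors Ackr1 (-2.39) and Ackr4 (-2.87), were lower in YAP7d against WT and also against YAP3d (-2.63 and -3.00), where 7.73% and 7.36% of all genes were lower. The median of the 6 was 0.19, above 0. In NK-cell-like cells Ccl4, a chemokine of cytotoxic cells, was lower against YAP3d (-0.80, SE 0.22, edgeR adjusted p 0.0227), 1 of 6, where 5.09% of all genes were lower. In macrophage-like cells Cx3cr1, a receptor gene of monocyte-derived cells, was higher against WT (2.32, SE 0.45, edgeR adjusted p 0.0197), 1 of 10, where 0.393% of all genes were higher. Of 3 enzymes that cut Cxcl16 or Cxcl10, Dpp4 was lower in endothelial-like cells against WT (-0.94, edgeR adjusted p 0.0191) and against YAP3d (-0.82, edgeR adjusted p 0.0218), and Adam10 and Adam17 did not pass. Over all cells, 4 of 22 tested chemokine and receptor genes of the second list were lower and 2 higher against WT, and 5 were lower and 1 higher against YAP3d, where 10.9% and 9.83% of all genes were lower and 7.17% and 6.64% higher.

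Across the mean levels of the 13 classes, the genes most like each member by Pearson correlation of log2(CPM + 1), among 7349 genes, included Adcy4 and Lamtor1 for Cxcl9 (r of 0.90 for both), and were Tmem106a, Pgm1 and Dram2 for Cxcl10 (0.82 to 0.87) and Cttnbp2nl, Fcgrt and B4galt4 for Cxcl16 (0.89 to 0.95). For Cxcl13 they were Pcolce2, Epb41l3 and Olfml3 (0.90 to 0.94) and for Ccl5 Tbx21, Cst7 and Il2rb (0.95 to 0.96). For the receptors they were Il12rb2, Kbtbd11 and Ctsw for Cxcr3 (0.88 to 0.93), Cd3g, Fasl and Cd96 for Cxcr6 (0.94 to 0.96) and Pax5, Fcer2a and Vpreb3 for Cxcr5 (0.94 to 0.96). The receptors were thus most like genes of T cells, cytotoxic cells and B cells. The 13 points share libraries and depth.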

How the data were processed

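Per the labels and the study's methods, the authors aligned droplet-based reads to mm10 with Cell Ranger and deposited 1 table of raw UMI counts per gene and cell, used here as deposited. Single cells were grouped in scanpy 1.11.5 (cells of 200 or more genes, 2418 variable genes without the listed chemokine genes, 30 principal components, Leiden resolution 1) and clusters were named from marker genes. Scrublet called 60 cells (0.704%) doublets, and they were kept. Counts were summed per library and class (at least 10 cells) and tested with edgeR 4.0.16 (quasi-likelihood, 1 fit of the 3 groups, genes with low counts filtered, Benjamini-Hochberg over all genes). CPM are raw counts over the class total. Scripts were tested on simulated data.

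The 8 members and the gene lists were chosen with earlier results of these data known. The rule names all 8 members wherever tested, and those that passed in no comparison of a class are given there by counts or levels. Of other listed genes, those with an adjusted p under 0.05 within a class were named, at most 5 per list, class and comparison, and the 3 most similar genes per member. Some genes that meet this rule are not reported here. Alternatives were DESeq2 1.42.0, no filter, 2 groups only, thinning to 2000 UMIs, other Leiden resolutions, a replicate block and leaving out each library. Chosen after seeing the data were the 6 deeper libraries, leaving out the highest cell, single clusters, the Gzmk cluster as T-cell-like, and libraries of 3 or more cells. Intervals and floors cover counting error only.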

Additional observations from a re-analysis of the deposited data

Results flagged for a closer look

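In 4 of 32 groups of 4 libraries that were examined, 1 library stood apart from the other 3 by Dixon's criterion on its gap to the nearest of them, which chance alone does in about 5% of groups. All values are normalised CPM within a class. Macrophage-like Cxcl9 was at 1524 in YAP3d replicate 1 and between 7.48 and 199.7 in the other YAP3d libraries. Macrophage-like Cxcl10 was at 1976 in YAP3d replicate 1 and between 29.9 and 169 in the others. One cell held 110 of the 118 Cxcl9 UMIs and 150 of the 153 Cxcl10 UMIs behind these values. Macrophage-like Ccl5 was at 269.5 in YAP3d replicate 4 and between 52.4 and 88.1 in the others. Conventional dendritic-cell-like Cxcl9 was at 881 in YAP3d replicate 2 and between 0 and 63.8 in the others, and 1 cell held 169 of its 198 UMIs.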

How the results depend on the processing

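No fold change of a named gene reversed its sign with a call. Members called within classes in YAP7d against WT (3) numbered 10 with no filter on low counts, 5 with only the 2 groups compared, 8 with the replicate block and 1 with only the NK-cell-like cluster led by Klra4. In YAP3d against WT (0) they numbered 4 with no filter, 2 with the block and 1 with monocyte-like libraries of 3 or more cells. In YAP7d against YAP3d (6) they numbered 10 with no filter, 3 with cells thinned to 2000 UMIs, 3 at Leiden resolution 2, 3 with only the Klra4 cluster and 2 with the 6 deeper libraries. Over all cells, the 3 against WT became 5 in DESeq2, 6 with only the 2 groups, 5 with the block and 0 with the 6 deeper libraries, and the 6 against YAP3d became 3 with the block and 0 with the 6 deeper libraries. The cause was not tested, except that the deeper set has fewer samples. Leaving out 1 library gave 2 to 5 members within classes and 1 to 5 over all cells against WT, with 1 over all cells without WT replicate 1, and 3 to 7 within classes and 2 to 6 over all cells against YAP3d, with 3 within classes without YAP3d replicate 1 or 3 and 2 over all cells without YAP7d replicate 2 or 3. In NK-cell-like cells, Cxcr3 lost both calls and Cxcr6 could not be tested at Leiden resolutions 0.5 and 2.

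Replicate numbers did not pair the samples throughout. The correlation of deviations between same-numbered libraries ran from -0.448 to 0.444, and 17 of 49 pairs were over 0.1. Over all cells, the replicate 1 libraries correlated at 0.444 (WT with YAP3d), 0.373 (WT with YAP7d) and 0.403 (YAP3d with YAP7d). In T-cell-like cells these values were 0.343, 0.359 and 0.260. They were 0.0422, 0.0539 and 0.0833 in macrophage-like and 0.120, 0.0624 and -0.160 in conventional dendritic-cell-like cells. Whether the replicate 1 libraries belong together was not tested. The block moved the counts as given above. Over all cells against YAP3d, the block removed the calls of Cxcl10 (-1.33, edgeR adjusted p 0.0920), Cxcl13 (-1.80, edgeR adjusted p 0.112) and Cxcr5 (-1.69, edgeR adjusted p 0.117). With it, Ccl5 passed in YAP3d against WT in macrophage-like (-2.74) and conventional dendritic-cell-like cells (-3.37), and Cxcl13 in macrophage-like (-4.63), Cxcr6 in T-cell-like (-0.98) and Ccl5 in macrophage-like (-2.32), endothelial-like (-1.37) and NK-cell-like cells (-0.68) passed in YAP7d against WT, while against YAP3d Cxcl9 in macrophage-like cells passed (-4.19) and Cxcl10 was higher in NK-cell-like cells (2.35).

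The 2 WT libraries, and as few as 15 cells per class and library, limit what could be detected.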
